A study of Arabidopsis thaliana with 12 samples.

Results

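The genes described are 28 named Arabidopsis thaliana genes whose array probes were among the brightest on average over the samples and in which the samples of high-CO2 plants and of normal-CO2 plants were not fully separated. They were chosen by their deposited intensities among 691 genes that had a probe annotated to them alone. In each sample the deposited intensities of all 3439 probes were converted to percentile ranks from 0 to 100, and a gene was kept when its mean rank over the 12 samples was at least 85. Its ranks in samples 1 to 4 of the 2 groups then had to overlap, and so did its 3 pair means (samples 1 and 2, 3 and 4, 5 and 6). Of 64 genes with a mean rank of at least 85, 32 were separated in samples 1 to 4 and 19 by pair means, 33 in either way, and 31 in neither. The choice left out 3 of these 31 by name: PSBW, PSB27 and AT3G54210. Rank level and lack of separation between the CO2 groups are therefore conditions of the choice, and all values of the CO2 comparison below are descriptions.

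The samples were total RNA of wild-type plants of ecotype Columbia 0. Plants labelled high CO2 had been kept for 6 d at 1% (v/v) CO2 (6 samples), and plants labelled normal CO2 were taken at 0 d (6 samples). CO2 level and time therefore differ together and cannot be told apart, and no organ or plant age is given in the labels. The labels do not say whether a group's samples are separate plants, so the spread between them may be technical.

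All 12 samples correlated best, across tested probes, with the partner of their number pair (Pearson r from 0.919 to 0.981), so intervals are given over 12 samples and over pair means, 3 per group. Samples 5 and 6 were set apart from samples 1 to 4 after the data had been seen. Leaving them out lowered the median SD of log2 intensity over all tested probes from 0.464 to 0.324 in high-CO2 plants. In normal-CO2 plants it fell from 0.502 to 0.268. The other pairs were not left out in turn, so it was not tested whether samples 5 and 6 differ more than they do. The log2 difference without samples 5 and 6 is given for some of the genes and not for all. Of 39 leaf photosynthesis genes listed as markers, 1 had a probe of its own, PRK, the phosphoribulokinase, with a mean percentile rank of 96.3. None of the 9 listed root genes did, and of 13 constitutive reference genes only AT2G28390, of the SAND family, was measured, at a mean rank of 57.0. The organ could therefore not be checked against a set of markers.

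The 28 genes do not belong to a common pathway. Among those with a well-known role, NdhS belongs to the chloroplast NADH dehydrogenase-like complex, which passes electrons from ferredoxin back into the plastoquinone pool. AT5G58330 encodes the plastid NADP-dependent malate dehydrogenase, which exports reducing power from the chloroplast as malate, and ATSPS4F encodes a sucrose-phosphate synthase of the cytosolic path to sucrose. HEMA3 is an isoform of glutamyl-tRNA reductase, the committed step of tetrapyrrole and so of chlorophyll synthesis, and AT2G38550 encodes FAX3, of a family that exports fatty acids from plastids. CCL is a transcript under circadian control, AT4G00870 encodes the basic helix-loop-helix factor bHLH14, ATSIK a protein kinase, and AT3G04210 a protein of the TIR-NBS class known from disease resistance. Families are named here for 3 more, without a search of the rest: AT3G09850 has a G-patch domain, found in RNA-processing proteins, AT4G19900 belongs to a glycosyltransferase family, and AT3G09080 has WD40 repeats. The annotation gave 23 of the 28 only a locus number, and all 28 matched a RefSeq gene.

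The genes were bright in nearly all samples but not equally even. Their mean ranks ran from 99.7 to 85.2 with a median of 91.4: 7 lay at 95 or over, 11 from 90 to under 95, and 10 from 85 to under 90. None was listed at 0 or reached the top intensity in any sample. Ranks stayed at 85 or over in all 12 samples for 17 of the 28 and at 75 or over for 24. Probe brightness depends on the probe as well as the transcript, so a higher rank does not mean more transcript, and no gene's level is set against another's. In RNA of whole samples, fewer cells of a type and less transcript per cell cannot be told apart. In order of mean rank the 10 highest were AT3G09850 (99.7), AT2G27290 (99.6), AT4G17070 (99.1), NdhS (98.4), AT1G62250 (98.4), AT4G19900 (96.2), AT2G33180 (95.9), CCL (94.2), AT1G13990 (93.8) and AT3G09080 (93.8). Then came AT4G00870 (91.8), AT3G13150 (91.8), ATSPS4F (91.8), AT5G06790 (91.8), AT3G04210 (91.0), AT4G13680 (91.0), AT2G44760 (90.9) and ATSIK (90.9). Under 90 lay AT1G01730 (88.9), AT4G09620 (88.0), AT5G33390 (87.7), HEMA3 (87.3), AT3G52070 (87.0), AT1G55440 (86.5) and AT5G58330 (86.3). AT2G38550, AT3G51500 and AT1G50390 were the last inside the threshold, at 86.1, 85.9 and 85.2, and AT3G06870, MAMI and AT1G49850 met the other conditions just outside it, at 84.99, 84.86 and 84.73.

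**Figure D1:**
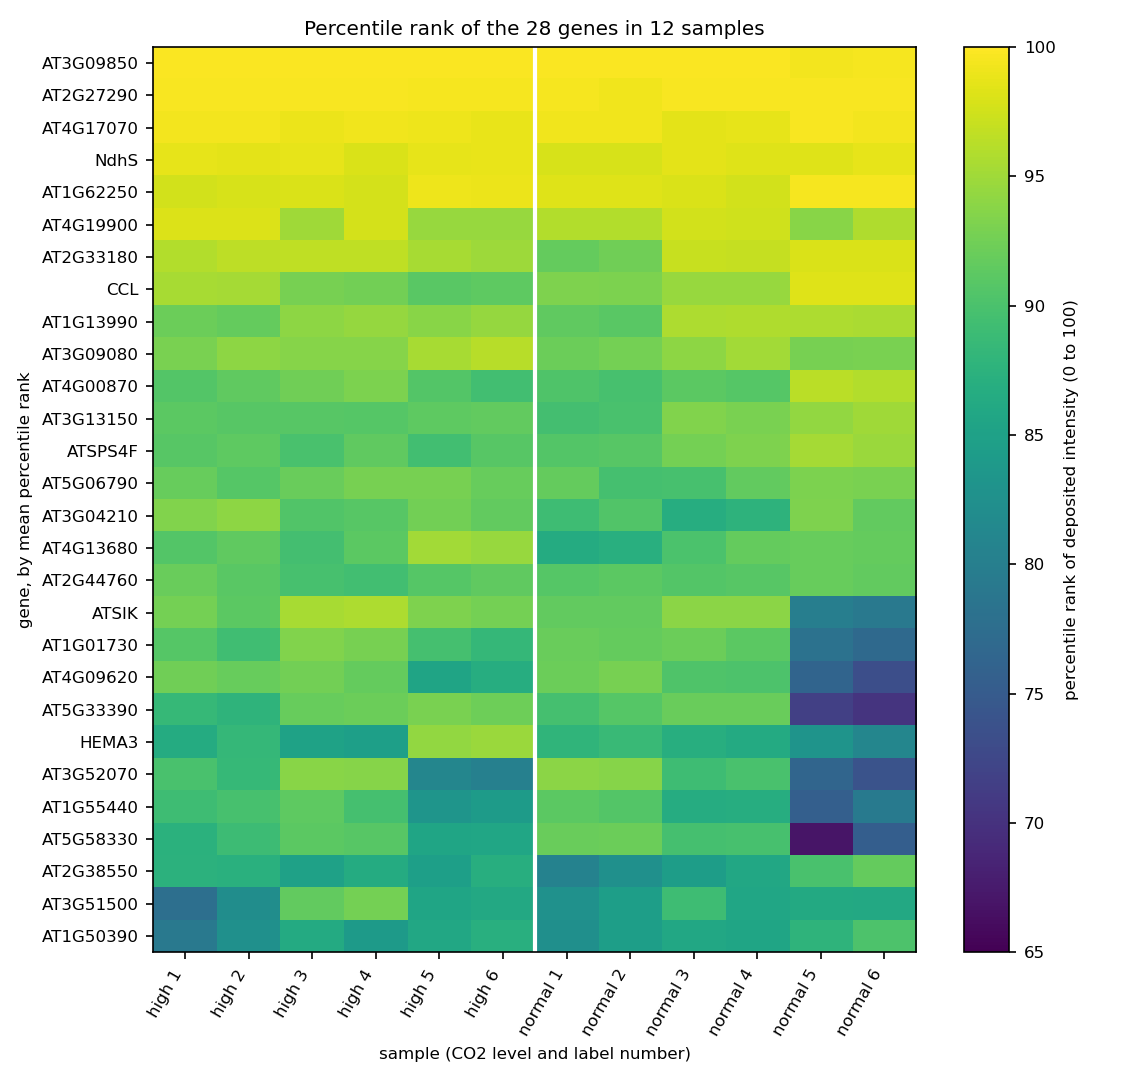
Percentile rank of the deposited intensity (colour) for each of the 28 genes (rows, by mean rank) in each of the 12 samples (columns, high CO2 left of the white line, normal CO2 right of it). Ranks can run from 0 to 100, but the colour scale starts well above 0. The lowest rank shown is 66.9, in normal-CO2 sample 5 of AT5G58330. Normal-CO2 samples 5 and 6 are dark in ATSIK, AT1G01730, AT4G09620, AT5G33390, AT3G52070, AT1G55440 and AT5G58330, and high-CO2 sample 1 is dark in AT3G51500 (77.8) and AT1G50390 (79.2).

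The range of a gene's rank over the 12 samples had a median of 7.08 percentile points in the 28 genes. It was under 10 points in 17 of the 18 genes with a mean rank of 90 or over (median 4.55), and from 11.1 to 25.2 points in the 10 genes under 90 (median 16.1). The exception among the 18 was ATSIK, at 16.5. Over all 691 genes the median range was 31.8 points. Ranks near 100 have little room to vary, and the other 36 genes with a mean rank of at least 85 had a median range of 7.18 (0.291 to 36.2), so the small ranges go with the rank level that the choice required.

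**Figure D2:**
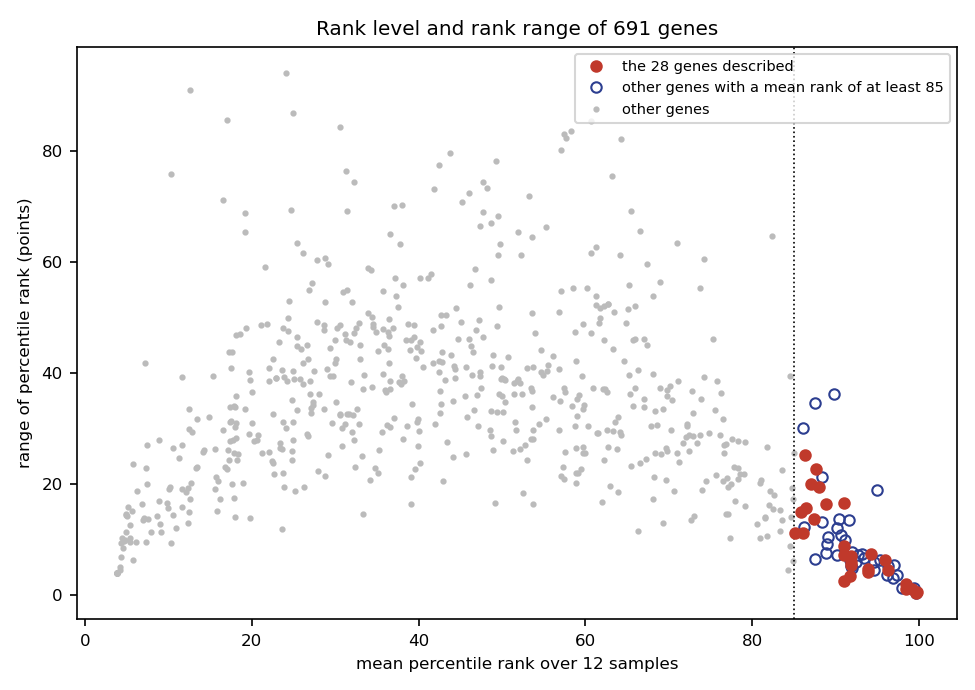
Range of percentile rank over 12 samples (points, vertical axis) against mean percentile rank (horizontal axis) for 691 genes, each point a gene. The 28 genes described (filled) lie among the other 36 genes with a mean rank of at least 85 (open), with medians of 7.08 and 7.18 points.

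The smallest rank ranges belonged to AT2G27290 (0.378 points), AT3G09850 (0.407), AT4G17070 (0.989), NdhS (1.05) and AT1G62250 (2.01). At that brightness a small step in rank is a large step in intensity, so intensities are given here after quantile normalization, which gives the samples a common distribution and the same value to probes of the same rank. NdhS, the NADH dehydrogenase-like subunit, had normalized intensities of 8.63, 7.56, 8.37, 5.76, 8.46 and 9.44 in high-CO2 samples 1 to 6, against 5.35, 5.24, 7.56, 6.47, 6.75 and 8.63 in normal-CO2 samples 1 to 6. Its highest sample was 1.80 times its lowest, the least of these 5 genes, and the groups overlapped. Its mean was 8.04 ± 1.27 in high-CO2 plants and 6.66 ± 1.301 in normal-CO2 plants (SD, n = 6 each).

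AT3G09850, the G-patch gene and the brightest of the 28, had 47.0, 62.6, 47.0, 76.9, 76.9 and 62.6 in high-CO2 samples 1 to 6, against 47.0, 47.0, 62.6, 62.6, 18.7 and 21.8 in normal-CO2 samples 1 to 6. Only normal-CO2 samples 5 and 6 lay clearly under the others. The log2 difference, high CO2 minus normal CO2, was 0.64 over 12 samples and 0.07 without samples 5 and 6 of both groups.

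AT2G27290 had 31.1, 33.1, 27.1, 31.1, 24.4 and 21.8 in high-CO2 samples 1 to 6, against 21.8, 13.7, 27.1, 31.1, 31.1 and 33.1 in normal-CO2 samples 1 to 6. AT4G17070 had 20.01, 18.7, 10.2, 12.5, 11.5 and 9.56 in high-CO2 samples 1 to 6, against 12.5, 12.9, 7.90, 8.03, 27.1 and 18.7 in normal-CO2 samples 1 to 6. In both genes samples 5 and 6 were brighter in normal-CO2 plants. Samples 1 and 2 of AT2G27290 were brighter in high-CO2 plants, while its samples 3 and 4 had the same values in both groups, and AT4G17070 was brighter in high-CO2 plants in both of these pairs. Their log2 differences over 12 samples were 0.14 and 0.0045, and without samples 5 and 6 they were 0.44 and 0.56.

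AT1G62250 had 4.85, 5.48, 5.61, 4.995, 11.0 and 10.7 in high-CO2 samples 1 to 6, against 6.64, 6.39, 5.69, 4.74, 25.7 and 25.7 in normal-CO2 samples 1 to 6. Samples 5 and 6 were the brightest of their group at both CO2 levels, and its 5.42-fold range between samples was the widest of the 28 genes. Samples 1 to 4 of both groups lay between 4.74 and 6.64. Its log2 difference was -0.52 over 12 samples and -0.15 without samples 5 and 6 of both groups.

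Among the other genes of the 10 highest ranks, CCL, the circadian transcript, had 2.74, 2.68, 1.87, 1.79, 1.48 and 1.53 in high-CO2 samples 1 to 6, against 1.97, 1.94, 2.42, 2.39, 6.47 and 6.75 in normal-CO2 samples 1 to 6. Samples 5 and 6 were the lowest in high-CO2 plants and the highest in normal-CO2 plants. Its log2 difference was -0.68 (95% interval -1.45 to 0.09 over 12 samples), the largest negative one of the 28, and it was 0.04 without samples 5 and 6. The hour of harvest is not given in the labels, and its part in the values of a circadian transcript was not tested.

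AT2G33180 had 3.06, 3.36, 3.49, 3.49, 2.78 and 2.52 in high-CO2 samples 1 to 6, against 1.61, 1.76, 4.00, 3.89, 5.76 and 5.61 in normal-CO2 samples 1 to 6. The high-CO2 samples lay inside the span of the normal-CO2 pairs, which were spread over 3.57-fold. AT1G13990 had 1.69, 1.61, 2.21, 2.37, 2.11 and 2.36 in high-CO2 samples 1 to 6, against 1.56, 1.49, 2.89, 2.92, 2.92 and 2.85 in normal-CO2 samples 1 to 6. In both groups its samples 1 and 2 were the lowest.

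AT4G19900, of the glycosyltransferase family, had 6.14, 6.14, 2.56, 5.11, 2.38 and 2.40 in high-CO2 samples 1 to 6, against 3.06, 3.03, 4.85, 4.53, 2.11 and 2.93 in normal-CO2 samples 1 to 6. High-CO2 samples 3 and 4 differed here by more than most partners. AT3G09080, with WD40 repeats, had 1.91, 2.22, 2.08, 2.07, 2.76 and 3.22 in high-CO2 samples 1 to 6, against 1.70, 1.82, 2.19, 2.63, 1.86 and 1.89 in normal-CO2 samples 1 to 6. High-CO2 samples 5 and 6 were its highest, and samples 1 to 4 of the groups overlapped, with a log2 difference of 0.01 without samples 5 and 6.

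The 5 widest rank ranges were those of AT5G58330 (25.2 points), AT5G33390 (22.7), AT3G52070 (19.9), AT4G09620 (19.5) and ATSIK (16.5), and in each of them normal-CO2 samples 5 and 6 were the lowest of the 12 samples. AT5G58330, the malate dehydrogenase, had 1.08, 1.23, 1.51, 1.46, 0.940 and 0.953 in high-CO2 samples 1 to 6, against 1.68, 1.70, 1.31, 1.31, 0.411 and 0.561 in normal-CO2 samples 1 to 6. In samples 1 to 4 the groups overlapped and the log2 difference was -0.19, and over 12 samples it was 0.20. The partners normal-CO2 5 and 6 were 8.49 percentile points apart, the widest gap between partners in the 28 genes.

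AT5G33390 had 1.17, 1.11, 1.63, 1.71, 1.92 and 1.72 in high-CO2 samples 1 to 6, against 1.31, 1.44, 1.68, 1.66, 0.486 and 0.462 in normal-CO2 samples 1 to 6. ATSIK, the protein kinase gene, had 1.82, 1.51, 2.74, 2.89, 1.97 and 1.81 in high-CO2 samples 1 to 6, against 1.60, 1.59, 2.15, 2.16, 0.686 and 0.657 in normal-CO2 samples 1 to 6. In both genes samples 5 and 6 were low in normal-CO2 plants and not in high-CO2 plants. Their log2 differences were 0.56 and 0.64 over 12 samples, against -0.14 and 0.22 without samples 5 and 6.

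AT3G52070 had 1.33, 1.17, 2.11, 2.08, 0.723 and 0.694 in high-CO2 samples 1 to 6, against 2.13, 2.08, 1.24, 1.34, 0.583 and 0.528 in normal-CO2 samples 1 to 6. AT4G09620 had 1.75, 1.63, 1.79, 1.60, 0.935 and 1.02 in high-CO2 samples 1 to 6, against 1.70, 1.86, 1.39, 1.37, 0.579 and 0.517 in normal-CO2 samples 1 to 6. In these 2 genes samples 5 and 6 were the lowest of their group at both CO2 levels. In AT3G52070 the remaining pairs crossed, with pair means of 1.25 and 2.09 in high-CO2 plants and 2.11 and 1.29 in normal-CO2 plants.

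**Figure D3:**
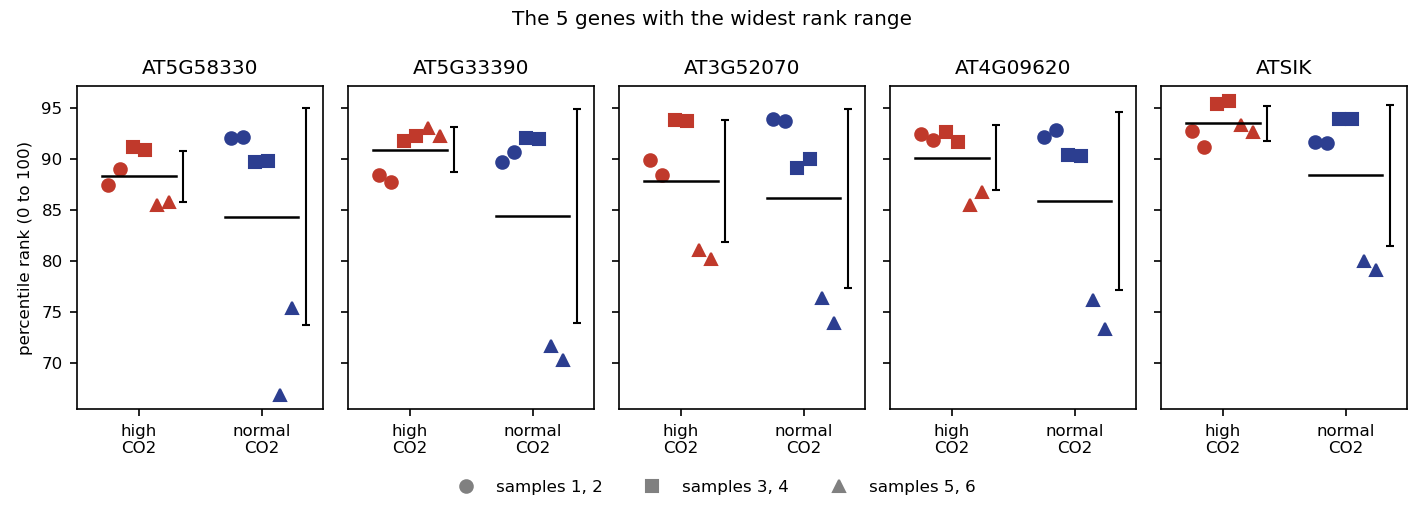
Percentile rank (vertical axis, from about 65 upwards) of the 5 genes with the widest rank range, by CO2 level. Each point is a sample, with shapes for samples 1 and 2, 3 and 4, and 5 and 6. Lines are means and bars SDs over 6 samples, and normal-CO2 samples 5 and 6 are the lowest points in each panel.

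The other genes with a known role are given next, followed by AT2G44760 and AT5G06790. HEMA3, the glutamyl-tRNA reductase isoform, had pair means of 1.08, 0.907 and 2.39 in high-CO2 plants and 1.16, 1.02 and 0.764 in normal-CO2 plants (samples 1 and 2, 3 and 4, 5 and 6). High-CO2 samples 5 and 6 alone were high, at 2.32 and 2.46, while the other 10 samples lay between 0.722 and 1.19. Its log2 difference was 0.46 over 12 samples and -0.13 without samples 5 and 6.

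ATSPS4F, the sucrose-phosphate synthase, averaged 1.44 ± 0.107 in high-CO2 plants and 1.97 ± 0.527 in normal-CO2 plants (SD, n = 6 each). Its high-CO2 samples were narrowly spread, from 1.28 to 1.55, and its normal-CO2 samples ran from 1.42 to 2.72, with samples 5 and 6 highest. The log2 difference was -0.42 (95% interval -0.82 to -0.01 over 12 samples), and ATSPS4F was the 1 gene of the 28 whose interval did not include 0. Over pair means its interval ran from -1.16 to 0.33, and without samples 5 and 6 the difference was -0.17 (95% interval -0.48 to 0.15).

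AT2G38550, the FAX3 gene, averaged 0.997 ± 0.0798 in high-CO2 plants and 1.05 ± 0.355 in normal-CO2 plants (SD, n = 6 each). Its pair means were 1.07, 0.957 and 0.964 in high-CO2 plants, against 0.745, 0.923 and 1.48 in normal-CO2 plants. Its samples 1 to 4 overlapped in rank but not in deposited intensity, at 1.07 to 1.21 in high-CO2 plants against 0.599 to 0.893 in normal-CO2 plants. AT4G00870, the bHLH14 gene, had pair means of 1.49, 1.83 and 1.35 in high-CO2 plants, against 1.36, 1.48 and 3.17 in normal-CO2 plants. In both genes the normal-CO2 pair 5 and 6 was the highest of all pairs.

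AT3G04210, the TIR-NBS gene, averaged 1.74 ± 0.313 in high-CO2 plants and 1.38 ± 0.347 in normal-CO2 plants (SD, n = 6 each). Its samples 1 to 4 ran from 1.40 to 2.203 in high-CO2 plants and from 1.03 to 1.40 in normal-CO2 plants. The groups thus met at a single level, a tie in rank. In deposited intensities these samples did not overlap, at 1.54 to 2.22 in high-CO2 plants against 0.946 to 1.26 in normal-CO2 plants. AT3G04210 had, with AT4G17070 (0.56), the largest log2 difference of the 28 without samples 5 and 6, at 0.55. AT2G44760 was the most even gene in intensity, with a highest sample 1.301 times its lowest, and averaged 1.46 ± 0.143 in high-CO2 plants and 1.51 ± 0.0910 in normal-CO2 plants (SD, n = 6 each). AT5G06790 followed, at 1.47 times, with 1.69 ± 0.160 in high-CO2 plants and 1.61 ± 0.272 in normal-CO2 plants (SD, n = 6 each).

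The remaining 6 genes, known by locus number, are given by their pair means in the same order. AT3G13150 had 1.48, 1.45 and 1.57 in high-CO2 plants, against 1.32, 1.96 and 2.44 in normal-CO2 plants. AT4G13680 had 1.499, 1.40 and 2.53 in high-CO2 plants, against 1.03, 1.49 and 1.62 in normal-CO2 plants. AT3G13150 was highest in the normal-CO2 pair 5 and 6 and AT4G13680 in the high-CO2 pair 5 and 6. AT1G01730 had 1.35, 1.92 and 1.23 in high-CO2 plants, against 1.63, 1.61 and 0.615 in normal-CO2 plants. AT1G55440 had 1.28, 1.42 and 0.836 in high-CO2 plants, against 1.46, 1.02 and 0.613 in normal-CO2 plants. Both had their lowest pair in normal-CO2 samples 5 and 6. AT3G51500 had 0.691, 1.71 and 0.961 in high-CO2 plants, against 0.837, 1.095 and 0.980 in normal-CO2 plants. AT1G50390 had 0.718, 0.924 and 1.01 in high-CO2 plants, against 0.830, 0.957 and 1.24 in normal-CO2 plants. The spread of AT3G51500 lay between high-CO2 pairs 1 and 2 and 3 and 4, apart from samples 5 and 6.

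The difference between pairs exceeded the difference between partners in each of the 28 genes. All 12 samples correlated best with their partner across tested probes, and the count was not made over all 691 genes. It is therefore not read as particular to the 28. The span of the 6 pair means was larger than the widest gap between partners in 28 of 28, with a median span of 6.30 percentile points, while the median gap between partners had a median of 0.545 over the genes. The pair at an extreme was most often normal-CO2 samples 5 and 6, the lowest in 9 genes and the highest in 11. Of the 10 genes with a mean rank under 90, 7 had their lowest pair mean there. The counts of extreme pairs were not made over all 691 genes either. Samples 5 and 6 entered the overlap conditions only through their pair means, and whether the choice favoured them as an extreme was not tested. The counts of extreme pairs are therefore not read as particular to the 28.

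Samples 5 and 6 both lay under samples 1 to 4 of their own group in 8 genes and over them in 6 in high-CO2 plants, and under them in 10 and over them in 12 in normal-CO2 plants. Over all 691 genes the shares were 25.5% and 23.6% in high-CO2 plants, and 34.3% and 30.0% in normal-CO2 plants. The 2 samples lay under in both groups in AT4G19900, AT4G09620, AT3G52070, AT1G55440 and AT5G58330, and over in both in AT1G62250 and AT3G13150. They went opposite ways in 4 genes: down in high-CO2 plants and up in normal-CO2 plants in AT2G33180 and CCL, and up in high-CO2 plants and down in normal-CO2 plants in AT5G33390 and HEMA3. Only NdhS, AT1G13990 and AT3G51500 had samples 5 and 6 outside the span of samples 1 to 4 in neither group. Over all 691 genes they lay under in both groups in 8.68%, over in both in 5.64%, down in high-CO2 plants and up in normal-CO2 plants in 8.39%, the other way round in 11.3%, and outside in neither in 20.7%.

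The spread within a group was wider in normal-CO2 plants in most of the genes. The SD of log2 intensity was larger in normal-CO2 plants than in high-CO2 plants in 22 of 28, with medians of 0.309 in high-CO2 plants and 0.479 in normal-CO2 plants. Over all 3349 tested probes it was larger in normal-CO2 plants in 53.9%, with medians of 0.464 in high-CO2 plants and 0.502 in normal-CO2 plants. Within samples 1 to 4 it was larger in normal-CO2 plants in 12 of 28, with medians of 0.209 in high-CO2 plants and 0.234 in normal-CO2 plants, close to the share of 42.1% over all tested probes, where the medians were 0.324 in high-CO2 plants and 0.268 in normal-CO2 plants. These counts are descriptions, since overlap of the groups, which spread within a group favours, was a condition of the choice.

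In the limma fit over 12 samples 0 of the 28 genes passed after Benjamini-Hochberg adjustment over all probes, where 418 of 3349 tested probes (12.5%) passed, and 1 of the 28, ATSPS4F, had an unadjusted p under 0.05 against 1011 of the 3349 probes. Nothing is read from this count, because the choice required overlapping groups. The same holds for the fit without samples 5 and 6, where 0 of 28 and 37.9% of the probes passed. In that fit 1 of 28, AT3G04210, and 1595 of 3349 probes had an unadjusted p under 0.05. Over pair means and with pairs as a random block, 0 of 28 and 0% of the probes passed, with 0 of 28 at an unadjusted p under 0.05 in either fit. The background of the separation itself was 50% of the 64 genes with a mean rank of at least 85 fully separated in samples 1 to 4, against 39.1% of all 691 genes, and 29.7% of the 64 separated by pair means, against 18.1% of the 691.

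The log2 differences of the 28 genes ran from -0.68 in CCL to 0.64 in AT3G09850, 18 of them positive and 10 negative. Their median was 0.13 against -0.02 over all tested probes, and their median size 0.25 against 0.44. These signs depend on the scaling. After scaling each sample to a common median, only 3 were positive and 25 negative, with a median of -0.48 against -0.08 over all probes, and 3 genes passed as lower in high-CO2 plants, beside 246 of 3386 probes (7.27%, and 9.78% in either direction): CCL (-1.28, limma adjusted p = 0.0194), ATSPS4F (-0.97, adjusted p = 0.0225) and AT4G00870 (-0.82, adjusted p = 0.0424). Without samples 5 and 6, after quantile normalization, their differences were 0.04, -0.17 and 0.22. Under median scaling 11 of the 28 had an unadjusted p under 0.05, against 1021 of 3386 probes. With values as deposited the median was 0.11 against 0.45 over all probes, 19 were positive and 9 negative, and 0 passed, beside 11.6% of the probes (1 of the 28 and 1073 of 3375 probes at an unadjusted p under 0.05). The sign was the same under the 3 scalings in 11 of the 28. Without samples 5 and 6 it turned in 9 of the 28. The median size of their differences was then 0.16, against 0.55 over all tested probes.

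Overlap of the groups does not show that a transcript stayed the same, and the intervals describe how far a difference could reach. Because the genes were chosen for overlap in this contrast, their intervals may lie too near 0. Their shares inside 2-fold are therefore no test against those of all tested probes. Over 12 samples the 95% interval lay inside a 2-fold change in either direction in 20 of the 28 genes, and in 40.0% of all tested probes. It reached past 2-fold in the other 8, of which AT1G62250 had the widest, from -1.53 to 0.49. The narrowest was that of AT2G44760, from -0.35 to 0.24. These intervals count partners as separate samples. So do those without samples 5 and 6, of which 23 of the 28 lay inside 2-fold, against 38.9% of all tested probes. Over pair means, 3 per group, 7 of the 28 lay inside 2-fold and 21 did not, against 16.1% of all tested probes inside, and with pairs as a random block 17 of the 28 did, against 19.3%. The count depends on the scaling too: after common median scaling the interval over 12 samples lay inside 2-fold in 7 of the 28, against 23.3% of all tested probes, and reached -1.92 in CCL and -2.28 in AT1G62250. With values as deposited the interval lay inside 2-fold in 19 of the 28, against 22.3% of all tested probes.

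**Figure D4:**
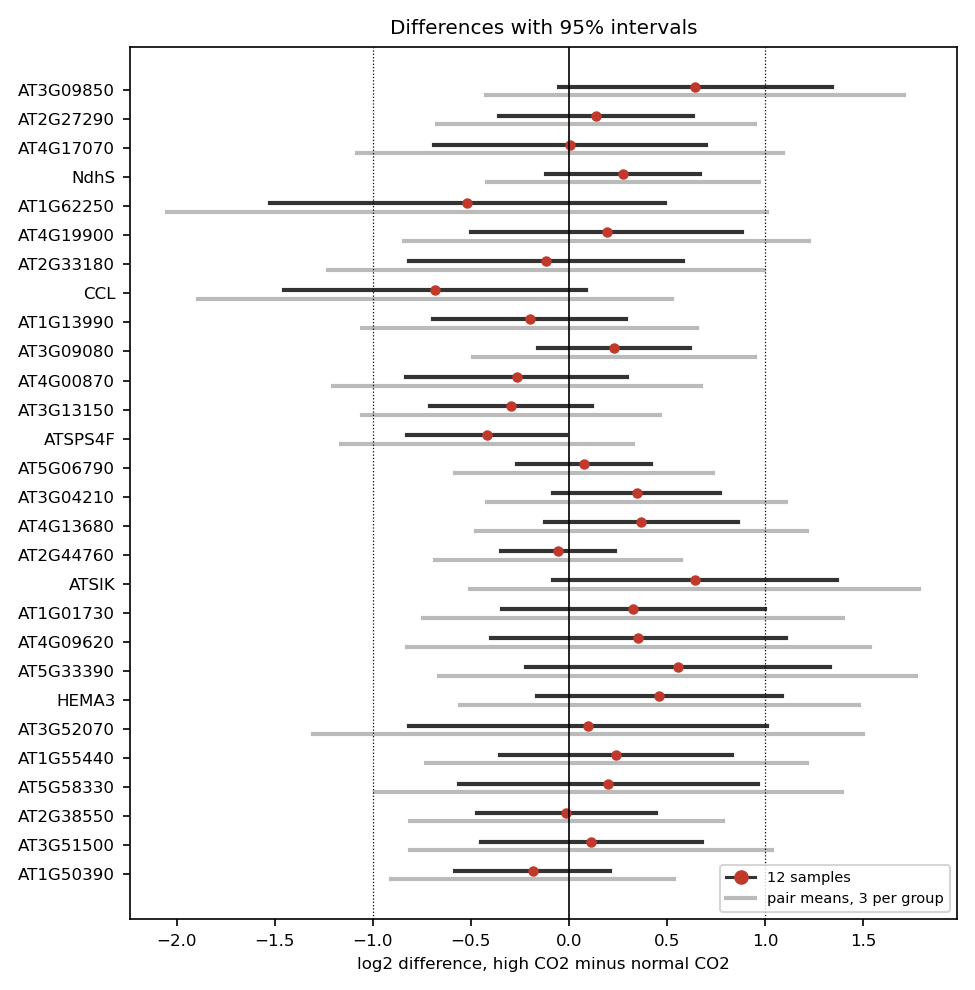
Log2 difference, high CO2 minus normal CO2 (horizontal axis), of the 28 genes, with 95% intervals from limma over 12 samples (dark, with point) and over pair means (grey). Dotted lines mark a 2-fold change. The intervals over 12 samples lie inside the dotted lines in 20 genes, and those over pair means in 7.

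By chromosome there were 5, 5, 8, 7 and 3 of the 28 genes on chromosomes 1, 2, 3, 4 and 5, where the 691 genes had 173, 123, 130, 120 and 143. None of the 28 had a further probe of its own. A probe annotated to several genes listed AT2G38550 at a mean rank of 17.8, and another listed AT5G06790 at 43.0, both far under the mean ranks of 86.1 and 91.8 of their own probes. Which transcript such a probe reads is unknown, and probes of gene families such as the sucrose-phosphate synthases or glutamyl-tRNA reductases may also read related transcripts, which was not tested.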

How the data were processed

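Total RNA of 12 samples was measured on an array with 3439 probes. The values are linear intensities as deposited by the authors, a unit read from the numbers themselves: none is negative, 133 to 398 probes per sample are listed at 0, and each sample tops out just under 100. The sources used here do not give the authors' scanner, background correction or normalization. Sample medians of the deposited intensities ran from 0.174 to 0.390 in high-CO2 plants and from 0.160 to 0.256 in normal-CO2 plants. The number of arrays limits the precision.

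Groups and sample numbers came from the labels. A 2016 platform annotation gave 692 probes 1 gene, 870 several and 1877 none. 689 of 691 genes matched RefSeq (TAIR10.1), used for names only. Percentile ranks average ties, and a gene's brightest probe was the one with the highest mean intensity. For log2 differences, quantile normalization was run in limma 3.58.1 under R 4.3.3, and zeros were set back to 0 after it. Values under 0.0398, zeros included, were then raised to that common floor, which touched no value of the 28 genes. Group was the only term, fitted to 3349 probes with lmFit and eBayes. The random block for pairs (statmod 1.5.0) had a consensus correlation of 0.785. The procedure was tested on simulated data with independent samples, so that test does not cover the pairing of these samples. Members, lists and tests were chosen with earlier results of these data known. Every gene is named with its mean rank, and each sample's value is given for the 10 highest mean ranks and the 5 smallest and 5 widest rank ranges. Alternatives covered the rule, scaling, floor, filter, blocks, pair means and samples left out.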

Additional observations from a re-analysis of the deposited data

How the results depend on the processing

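The number of genes meeting the rule was 28, and 18 with a mean rank of at least 90. It was 39 with a mean rank of at least 80, 41 with ranks among probes of 1 gene only (27 shared with the 28), 27 with overlap read on deposited intensities (22 shared), and 26 to 30 leaving out 1 sample. Without samples 5 and 6, chosen after seeing the data, it was 26 (23 shared). The count of probes passing limma, 418 of 3349, became 0 over pair means (408 at an unadjusted p under 0.05) and 0 with pairs as a random block (511), 1270 without samples 5 and 6, and 230 to 580 leaving out 1 sample, with 230 without high-CO2 sample 3, 240 without 4, 242 without 2, 266 without 1, and 270 without normal-CO2 sample 5. The 28 genes had 0 passing in all these settings, and 3 after common median scaling, where their median log2 difference was -0.476. Elsewhere that median lay between 0.075 and 0.178. With the replicate block 460 probes and 0 of the 28 genes passed. Same-numbered samples of the groups correlated from -0.0784 to 0.158 in their deviations, which does not settle whether the numbers pair them. Of 588 log2 differences of single genes over the alternatives, 558 moved by less than the spread between samples without a change of call. Those with each sample's own floor, the floor filter, the replicate block, pair means or the random block could not move. The 558 therefore include values fixed in advance. Under median scaling 3 became calls (CCL, ATSPS4F and AT4G00870), and 20 of the 27 that moved more did so under median scaling. The cause was not tested.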
